A study of Mus musculus with 12 samples.

Results

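The genes described here encode the enzymes of the tricarboxylic acid (TCA) cycle, the pyruvate dehydrogenase complex that feeds it, and the carriers and transaminases that shuttle its intermediates across the inner mitochondrial membrane. The set was chosen by gene symbol and holds 35 genes, of which 29 were measured among 9843 named genes. The array annotation listed no probe for Got1, Mpc1 and Mpc2. Probes for Sdha, Pdhx and Me3 were present but did not pass the detection filter, so none of these 6 genes has a value here. Every one of the 29 measured genes was detected on all 12 arrays, and none depended on the filter. RNA came from the whole heart of male mice of the C57Bl/6 strain at an age of 8 weeks. There were 6 exercised samples, from mice with 7 days on a running wheel used at will, and 6 sedentary control samples. The labels name no transgene, drug or other treatment in either group. They number the replicates but do not state whether these were different animals, and p-values therefore reflect only how much these 12 samples vary.

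The TCA cycle oxidises acetyl groups to carbon dioxide and hands electrons to the respiratory chain as NADH and, at succinate dehydrogenase, through a bound flavin. In heart muscle most acetyl groups come from fatty acids and the rest from pyruvate, which enters through the pyruvate dehydrogenase complex, a multi-enzyme machine switched off by kinases and on by phosphatases. The malate-aspartate shuttle moves reducing equivalents of cytosolic NADH into the matrix through paired malate dehydrogenases, paired aspartate transaminases and their carriers.

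Each sample was hybridised to an Illumina beadchip, and values are log2 intensities after background correction and quantile normalisation. A level is that of a gene's brightest probe and cannot be set against the level of another gene. The arrays stood apart in their background and in their liver transcripts, and both bear on the results. Raw median signals were 48.6 to 53.3 on 8 low-background arrays (3 exercised, 5 sedentary) and 130.5 to 138.6 on 4 high-background arrays, which were replicates 2, 3 and 6 of the exercised group and replicate 2 of the sedentary group. The mean of 10 measured hepatocyte transcripts was 10.47 to 12.93 in exercised replicates 1, 5 and 6, 6.25 to 7.55 in the other exercised hearts and 5.89 to 8.05 in sedentary hearts. All 10 hepatocyte transcripts had a positive difference (median 2.80), and none passed the test. The mean of 13 cardiomyocyte transcripts was 14.02 to 14.13 in exercised and 13.91 to 14.09 in sedentary hearts, so the defining transcripts of heart muscle were present on every array; Tnnt2 alone of that list was not measured. The mean of 6 macrophage transcripts was 8.52 to 8.87 in exercised and 8.99 to 9.52 in sedentary hearts, without overlap, and 2 of the 6 passed the test. All 5 endothelial transcripts (median difference -0.31) and all 5 fibroblast transcripts (median -0.50) were lower in exercised hearts, with none past the test. The mean of 4 atrial transcripts varied widely, from 11.75 to 13.93 in exercised and from 10.67 to 14.05 in sedentary hearts. All 4 had a positive difference (median 0.34), and none passed the test. In RNA of a whole organ, fewer cells of a type and less RNA per cell cannot be told apart. The part of these markers in the results below was not tested, except where values without the arrays concerned are given.

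After a week of running, no gene of the set changed at an adjusted p under 0.05, while 0.183% of all named genes did (18 of 9843, limma with Benjamini-Hochberg adjustment). The differences were small and mostly positive. The difference, exercised minus sedentary, was positive for 20 of the 29 measured genes (69%), against 43.4% of all named genes, with a median of 0.16 against -0.035 on the log2 scale. The middle of the set lay between -0.017 and 0.24 (quartiles), against -0.20 to 0.11 over all genes. The single differences ran from -0.42 for Sdhd to 0.43 for Suclg2. At an unadjusted p under 0.05 there were 2 of 29 genes (6.9%), Pcx and Suclg2, both higher in exercised hearts, a lower share than the 15.9% of all named genes. No gene had exercised and sedentary arrays that did not overlap, against 1.12% of all named genes.

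**Figure D1:**
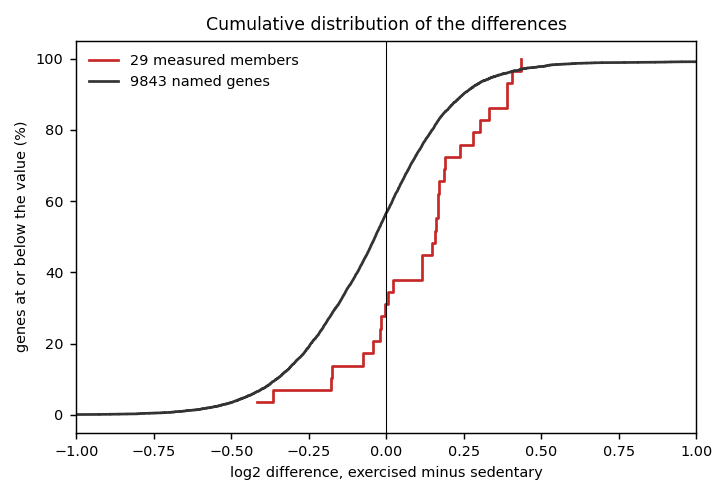
Cumulative distribution of the exercised minus sedentary log2 difference for the 29 measured genes of the TCA cycle set (red) and for all 9843 named genes (black), with the share of genes at or below each value on the vertical axis in percent. The red curve lies to the right of the black one over most of its course, with medians of 0.16 and -0.035.

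The precision of single genes bounds what could be seen. Standard errors were 0.080 to 0.276 (median 0.125), and the 95% interval of the difference stayed within a 1.5-fold change in either direction (0.585 on the log2 scale) for 20 of the 29 genes. The interval reached past that size on the higher side for 7 genes and on the lower side for 2. The number of arrays limits this precision. Scaling each array to a common median in place of quantile normalisation moved the median of all genes to 0.26. The set then had 27 of 29 positive differences (93.1%), against 83.4% of all named genes. Its median of 0.42 exceeded that of all genes by 0.16, compared with 0.19 under quantile normalisation.

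**Figure D2:**
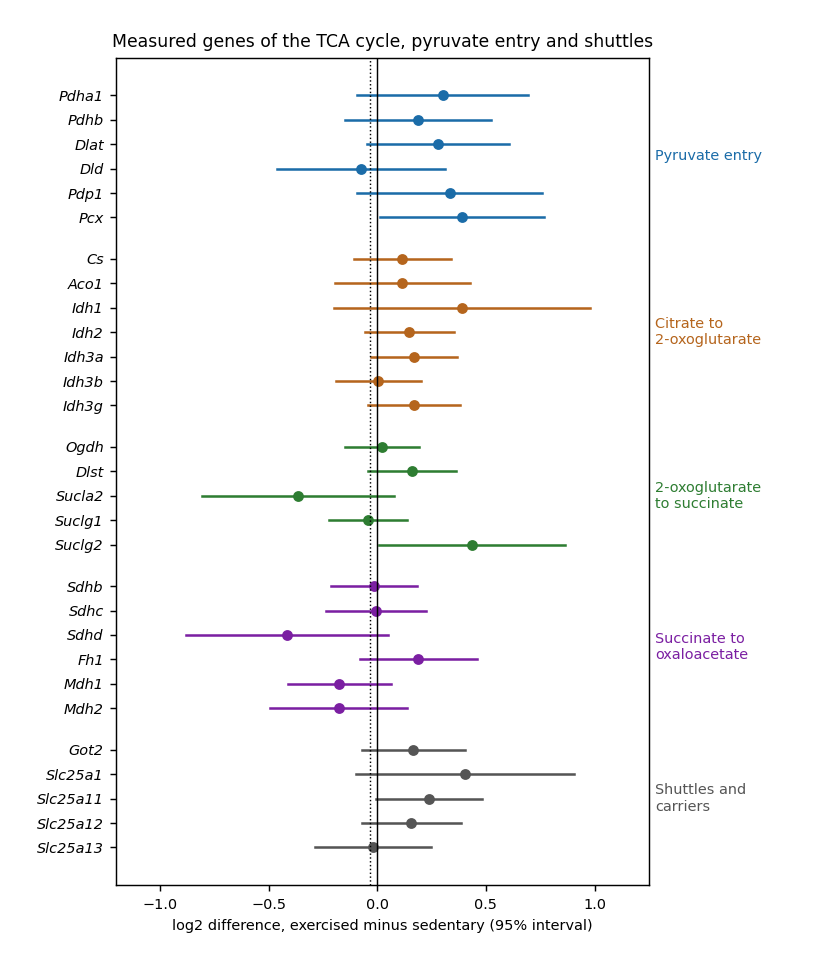
Exercised minus sedentary log2 difference of each of the 29 measured genes (point) with its 95% interval (line), grouped by place in the pathway; the solid line marks no difference and the dotted line the median of all named genes at -0.035. All 7 genes from citrate to 2-oxoglutarate lie above 0, while 5 of the 6 from succinate to oxaloacetate lie below it.

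With all arrays, pyruvate entry was the group with the highest median difference, 0.29, with 5 of its 6 measured genes positive and none past the adjusted threshold. That rank depended on the background of the arrays. With the background range fitted as a block its median was 0.098, against 0.106 for the shuttle and carrier genes. Within the low-background arrays it was 0.105 against 0.121. Pcx, pyruvate carboxylase, which makes oxaloacetate from pyruvate, had a lowest, median and highest value of 5.66, 6.11 and 6.62 in exercised hearts, against 5.38, 5.78 and 6.05 in sedentary hearts. The groups overlapped, with 3 exercised arrays above every sedentary one, and the difference was 0.39 (SE 0.18, unadjusted p = 0.0442, adjusted p = 0.303 in limma). Dlat, the acetyltransferase core of pyruvate dehydrogenase, was at 10.87, 11.03 and 11.62 in exercised hearts, against 10.66, 10.77 and 11.28 in sedentary hearts. Its 2 highest arrays were exercised replicates 2 and 3, both of high background, and its difference was 0.28 (SE 0.15, adjusted p = 0.375 in limma). Pdha1, the catalytic alpha subunit, was at 13.35, 13.73 and 14.26 in exercised hearts, against 13.10, 13.37 and 13.96 in sedentary hearts. It again had exercised replicates 2 and 3 alone above every sedentary array, with a difference of 0.30 (SE 0.18). Pdp1, a phosphatase that reactivates the complex, was at 8.21, 8.55 and 9.08 in exercised hearts, against 7.81, 8.19 and 9.03 in sedentary hearts, a difference of 0.33 (SE 0.20). The highest sedentary value of Pdp1 and the highest exercised one came from the replicates numbered 2, both on high-background arrays. Pdhb, the beta subunit partner of Pdha1, differed by 0.19 (SE 0.16). Dld, the dihydrolipoamide dehydrogenase shared with the 2-oxoglutarate complex, differed by -0.074 (SE 0.18).

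From citrate to 2-oxoglutarate, all 7 measured genes had positive differences (median 0.15), the lowest 0.0052 for Idh3b and the highest 0.39 for Idh1, with none past the test. Idh3a, the catalytic subunit of the NAD-dependent isocitrate dehydrogenase, was at 12.18, 12.41 and 12.71 in exercised hearts, against 12.06, 12.25 and 12.33 in sedentary hearts. The groups overlapped, with 4 of 6 exercised arrays above every sedentary one, and the difference was 0.17 (SE 0.092, adjusted p = 0.371 in limma). Idh3g, a regulatory subunit of the same enzyme, was at 13.84, 13.97 and 14.15 in exercised hearts, against 13.59, 13.79 and 14.18 in sedentary hearts. No exercised array lay above the highest sedentary one, which was replicate 1, and the difference was 0.17 (SE 0.099). Idh3b, the other regulatory subunit, differed by 0.0052 (SE 0.092). Idh2, the NADP-dependent enzyme of the matrix, was at 13.59, 13.72 and 13.98 in exercised hearts, against 13.46, 13.56 and 13.90 in sedentary hearts. The groups shared most of their range, with a difference of 0.15 (SE 0.096). Idh1, its cytosolic counterpart, was at 9.35, 9.98 and 10.66 in exercised hearts, against 9.09, 9.49 and 10.63 in sedentary hearts. Its difference of 0.39 had the largest standard error of the set (0.28), and its 4 highest values were those of the 4 high-background arrays. Cs, citrate synthase, which joins acetyl-CoA to oxaloacetate, differed by 0.12 (SE 0.10). Aco1, the cytosolic aconitase that doubles as an iron regulatory protein, differed by 0.11 (SE 0.15).

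From 2-oxoglutarate to succinate, 3 of 5 measured genes had positive differences (median 0.023), and the beta subunits of succinyl-CoA ligase differed in opposite directions. Suclg2, the GTP-forming beta subunit, was at 10.69, 11.23 and 11.58 in exercised hearts, against 10.48, 10.56 and 11.42 in sedentary hearts. The 3 high-background arrays were the highest of the exercised group, and those 3 alone lay above every sedentary array; the difference was 0.43 (SE 0.20, unadjusted p = 0.0464, adjusted p = 0.309 in limma). Sucla2, the ADP-forming beta subunit, was at 5.37, 6.04 and 6.35 in exercised hearts, against 5.66, 6.41 and 6.88 in sedentary hearts. A single exercised array, replicate 6, lay below every sedentary one, and the difference was -0.36 (SE 0.21, adjusted p = 0.388 in limma). That array and the lowest sedentary one, replicate 2, were both of high background. Suclg2 and Sucla2 also differed in opposite directions between high-background and low-background arrays, by 0.77 and -0.60. Suclg1, the alpha subunit common to both forms, differed by -0.042 (SE 0.084). Dlst, the succinyltransferase core of the 2-oxoglutarate dehydrogenase complex, was at 12.65, 12.81 and 13.08 in exercised hearts, against 12.45, 12.69 and 12.91 in sedentary hearts. Only exercised replicates 2 and 3 exceeded the sedentary range, and the difference was 0.16 (SE 0.095). Ogdh, the decarboxylating subunit of that complex, differed by 0.023 (SE 0.080), the smallest standard error of the set.

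From succinate to oxaloacetate, only Fh1 of the 6 measured genes had a positive difference, and the median was -0.096. Sdhd, a membrane anchor of succinate dehydrogenase, was at 9.69, 10.39 and 10.75 in exercised hearts, against 9.98, 10.75 and 11.17 in sedentary hearts. The 2 exercised arrays below every sedentary one were replicates 2 and 6, both of high background, and the difference of -0.42 (SE 0.22, adjusted p = 0.355 in limma) was the most negative of the set. Sdhb, the iron-sulphur subunit, and Sdhc, the other anchor, differed by -0.017 (SE 0.093) and -0.0054 (SE 0.11). Fh1, fumarase, differed by 0.19 (SE 0.13), a value that was 0.092 without exercised replicate 3. Mdh2, the malate dehydrogenase of the matrix, was at 12.43, 13.13 and 13.35 in exercised hearts, against 13.07, 13.18 and 13.67 in sedentary hearts, a difference of -0.18 (SE 0.15). Mdh1, the cytosolic enzyme of the malate-aspartate shuttle, was at 11.35, 11.67 and 11.999 in exercised hearts, against 11.63, 11.87 and 12.13 in sedentary hearts, a difference of -0.17 (SE 0.11). For both dehydrogenases the lowest of all 12 arrays was exercised replicate 6 and the highest was sedentary replicate 1. With median scaling both differences were positive, 0.13 for Mdh1 and 0.059 for Mdh2, below the median of all genes at 0.26.

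Promoter sequence was set beside these values for motifs of factors known to act on mitochondrial genes. The motifs searched on both strands were AAGGTCA, an element bound by estrogen-related receptors, and GCATGCGC, the core of the site of nuclear respiratory factor NRF1. Windows of 300 bases, 250 before to 50 after the annotated start, came from RefSeq (GRCm38.p6) and were present for 26 of the 29 measured genes; Idh3a, Sdhc and Pdp1 had no entry. AAGGTCA or its reverse complement was found in 2 of the 26 (7.69%), Ogdh and Sdhd, against 5.38% of 27025 genes in the table. GCATGCGC or its reverse complement, with no match that overlapped one of AAGGTCA, was found in 2 of the 26 (7.69%), Ogdh and Sdhb, against 3.05% of those genes. Ogdh and Sdhb were shown for holding a match and lie outside the rule for printed sequences, and Sdhd lies within it. The matches are shown with the motif in capitals and up to 11 bases on each side, read 5′ to 3′ on the strand of the gene, since they are the only matches among the measured genes:
Ogdh, chr11:6292154-6292182, plus strand: ggacacggcgcTGACCTTggtgcctgcgg
Sdhd, chr9:50603800-50603824, minus strand: gggttgtagagTGACCTTgagccct
Ogdh, chr11:6292532-6292561, plus strand: ctaggtgttgtGCGCATGCgtaactcaact
Sdhb, chr4:140961206-140961235, plus strand: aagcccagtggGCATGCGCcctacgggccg
The Ogdh matches lie in windows of different annotated starts. Genes with a match included the most negative difference of the set, Sdhd, and differences near 0, Ogdh and Sdhb. A match describes the letters of the window and not occupancy by a factor.

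Among the shuttle and carrier genes, 4 of 5 measured genes had positive differences, with a median of 0.17 and none past the test. Slc25a11, the carrier that exchanges malate for 2-oxoglutarate, was at 11.84, 12.01 and 12.37 in exercised hearts, against 11.56, 11.70 and 12.09 in sedentary hearts. All exercised arrays lay above 4 of the 6 sedentary ones, and the exceptions were sedentary replicates 1 and 2; the difference was 0.24 (SE 0.11, unadjusted p = 0.056, adjusted p = 0.324 in limma). Slc25a1, the citrate carrier that exports citrate for lipid synthesis, was at 6.17, 7.36 and 7.68 in exercised hearts, against 6.34, 6.78 and 7.20 in sedentary hearts. Of its exercised arrays 4 lay above every sedentary one and 1 below them all, with a difference of 0.40 (SE 0.23, adjusted p = 0.395 in limma). Slc25a12, the aspartate-glutamate carrier known as the main form in muscle, was at 10.41, 10.65 and 11.07 in exercised hearts, against 10.33, 10.54 and 10.68 in sedentary hearts. Only 2 exercised arrays exceeded the sedentary range, and the difference was 0.16 (SE 0.11). Slc25a13, the form known as the main one in liver, was at 6.30, 6.39 and 6.67 in exercised hearts, against 6.27, 6.47 and 6.74 in sedentary hearts, a difference of -0.021 (SE 0.13). Got2, the mitochondrial aspartate transaminase, differed by 0.17 (SE 0.11).

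**Figure D3:**
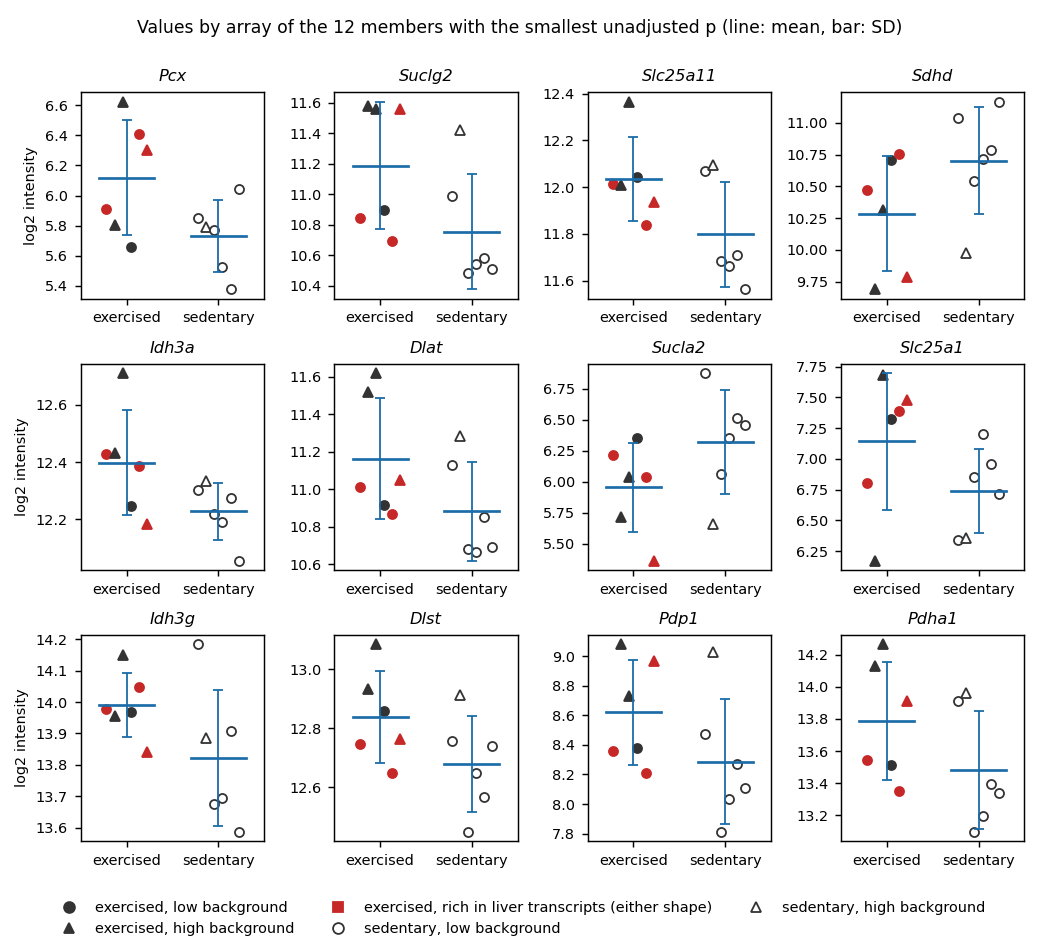
Log2 intensity on each array (point) of the 12 genes of the set with the smallest unadjusted p, exercised left and sedentary right in each panel, with the group mean (line) and SD (bar), n = 6 per group and a separate vertical scale for each gene. Triangles are high-background arrays and red points the 3 exercised arrays rich in liver transcripts; every panel has overlapping groups, and in Suclg2 and Pdp1 the triangles of both groups lie above the circles.

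Paired forms of 1 enzyme or carrier were compared within each array, by testing whether the difference between the 2 genes shifted between exercised and sedentary hearts. Of 5 planned pairs 4 could be tested, since Got1 has no probe, and exact two-sided permutation tests over every assignment of arrays to groups were adjusted over the 4. The paralog difference Suclg2 minus Sucla2 was 0.80 higher in exercised hearts (p = 0.0714, adjusted p = 0.195, exact permutation), at 5.23 ± 0.72 on average in exercised hearts and 4.43 ± 0.67 in sedentary hearts (SD, n = 6 each). Within the low-background arrays that shift was 0.44 and within the high-background arrays 0.096. Without sedentary replicate 2 it was 1.07 (adjusted p = 0.0433, exact permutation), past the threshold. That array was the only high-background sedentary one, so without it every high-background array was exercised, and exercise and background cannot be told apart there. The Slc25a13 minus Slc25a12 difference was -0.18 in the same comparison (p = 0.0974, adjusted p = 0.195, exact permutation), with 3 exercised arrays below every sedentary one. The Idh1 minus Idh2 difference shifted by 0.24 (adjusted p = 0.704, exact permutation), and the Mdh1 minus Mdh2 difference by 0.0036 (adjusted p = 0.959, exact permutation).

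Several genes of the set differed with the background of the array, though a smaller share than among all named genes. With the group in the same fit, 9 of the 29 genes differed between the 4 high-background and the 8 low-background arrays at an adjusted p under 0.05, 7 higher and 2 lower, compared with 35.3% of all named genes. Idh1 was at 10.38 to 10.66 on the high-background arrays, against 9.09 to 9.65 on the low-background ones, a difference of 1.11 (SE 0.11, adjusted p = 3.07e-05 in limma). Suclg2 was at 11.42 to 11.58 against 10.48 to 10.99, a difference of 0.77 (SE 0.096), and Sdhd at 9.69 to 10.32 against 10.47 to 11.17, a difference of -0.77 (SE 0.14). For these 3 genes, and for Pdp1 (0.71) and Got2 (0.33), the ranges did not overlap. The 4 that overlapped were Pdha1 (0.61), Dlat (0.47), Pdhb (0.46) and Sucla2 (-0.60). Since 3 of the 4 high-background arrays were exercised, exercise was also fitted with the background range as a block. The median of the set was then 0.055 against -0.019 over all genes. Of the 29 differences 20 were still positive, against 45.2% of all named genes. An unadjusted p under 0.05 was found for 0 of 29, against 13.3% of all named genes. The difference became 0.18 for Suclg2, 0.019 for Idh1, 0.12 for Dlat, 0.096 for Pdp1 and 0.099 for Pdha1. It became -0.16 for Sdhd and -0.16 for Sucla2, while it was 0.33 for Pcx and 0.47 for Slc25a1. The size of the difference of dim probes also depended on the processing. In the deposited processed values, without that block, it was 0.12 for Pcx, 0.20 for Slc25a1 and -0.12 for Sucla2. With all arrays in the main fit these were 0.39, 0.40 and -0.36. Within the low-background arrays alone (3 exercised, 5 sedentary) the median was 0.069.

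Liver transcripts were abundant in exercised replicates 1, 5 and 6, and the set was lower there than in the other exercised hearts. The mean over the 29 genes was 11.11 to 11.16 in those 3 arrays, 11.20 to 11.48 in the other exercised arrays and 10.94 to 11.31 in sedentary arrays. Without the 3 arrays the median difference was 0.21 against -0.015 over all genes, and 22 of 29 differences were positive, against 48% of all named genes. An unadjusted p under 0.05 was then found for 7 of 29 genes (24.1%), all higher in exercised hearts, against 15% of all named genes, and none passed the adjusted threshold. These were Suclg2 (0.59), Pdha1 (0.48), Dlat (0.47), Pdhb (0.41), Slc25a11 (0.34), Slc25a12 (0.29) and Dlst (0.28). They include the E1 and acetyltransferase components of pyruvate dehydrogenase and the malate and aspartate carriers. Pcx was 0.30, and Mdh1 and Mdh2 were -0.011 and -0.047. Of the 3 exercised arrays that remained, replicates 2 and 3 were of high background, so this comparison and the background range overlap. A single sedentary array also moved these counts, since without sedentary replicate 2, the only high-background sedentary array, 10 of 29 genes had an unadjusted p under 0.05 (8 higher, 2 lower), against 25.7% of all named genes.

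**Figure D4:**
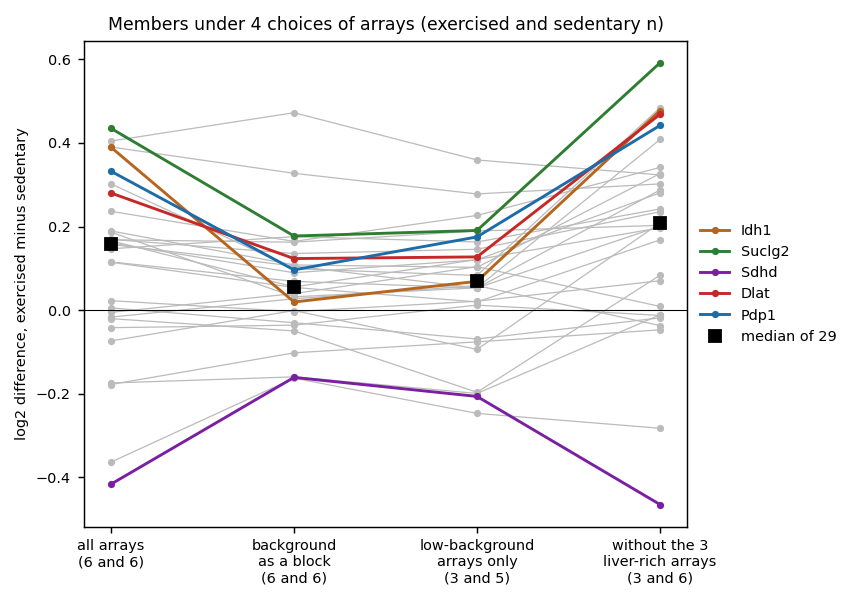
Exercised minus sedentary log2 difference of each of the 29 measured genes (lines) with all arrays, with the background range as a block, within low-background arrays only and without the 3 exercised arrays rich in liver transcripts; squares mark the median of the 29 genes and coloured lines 5 genes named in the legend. The median is 0.16, 0.055, 0.069 and 0.21 in that order. The 5 coloured genes are all among the 9 that differed by background range, so they do not stand for the set. They lie closer to 0 in both settings that take account of the background. Not every gene does, as Slc25a1 went from 0.40 to 0.47 with the block.

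Other probes of the same genes did not always give the same sign. Of the 29 genes 16 had several passing probes, and in 9 of these the probes included both a positive and a negative difference. The brightest probe of Idh3a gave 0.17 and its other probe -0.31, and those of Fh1 gave 0.19 and -0.31. The Suclg1 probes gave -0.042, 0.26 and -0.33, so the near-zero value of this alpha subunit depended on the probe. Got2 gave 0.17 and -0.35, and Pdp1 gave 0.33 and -0.30. Both Suclg2 probes were positive (0.43 and 0.61), all 3 Slc25a11 probes were positive (0.030 to 0.27), and all 3 Mdh1 probes were negative (-0.64 to -0.17). With the mean of all passing probes in place of the brightest, 16 of 29 genes were positive, against 43.4% of all named genes. The median was 0.023, against -0.036 over all genes.

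Genes that act beside the set were taken from 5 lists of related enzymes and carriers, of which 33 genes were measured. None passed the adjusted threshold, 9 (27.3%) had an unadjusted p under 0.05 (6 higher, 3 lower), against the 15.9% of all named genes given above, and the median difference was 0.069. Regulators and lipoylation enzymes of pyruvate dehydrogenase had 6 of 9 positive differences. Pdp2, the second phosphatase that activates the complex, was at 11.08, 11.18 and 11.54 in exercised hearts, against 10.45, 10.84 and 10.97 in sedentary hearts. All 6 exercised arrays of Pdp2 lay above every sedentary one, and the difference was 0.42 (SE 0.10, unadjusted p = 0.00091, adjusted p = 0.109 in limma). Pdp2 was the only one of the 33 whose groups did not overlap, against 1.12% of all named genes. Its difference was 0.36 with the background range as a block. It passed the adjusted threshold with array weights (0.38, adjusted p = 0.0285 in limma), where 5.42% of all named genes passed. The 4 high-background arrays had weights of 0.40 to 0.46 there. Pdp2 also passed without sedentary replicate 2 (0.46, adjusted p = 0.0448 in limma), where 2.4% of all named genes passed. Without that array, high background remained in the exercised group only. Pdk1, a kinase that inactivates the complex, differed by 0.40 (SE 0.15, adjusted p = 0.242 in limma), and by 0.26 with the background range as a block. The TCA enzyme and assembly list had 1 of 5 positive, and the succinate dehydrogenase assembly factors Sdhaf3 and Sdhaf4 differed by -0.27 (SE 0.10) and -0.31 (SE 0.13), and by -0.18 and -0.16 with that block.

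Among 11 measured genes of anaplerosis, the refilling of the cycle's intermediates, 7 were positive. Gpt2, the mitochondrial alanine transaminase, differed by 0.40 (SE 0.15), with 5 exercised arrays above every sedentary one and 1 below them all; within the low-background arrays it differed by 0.13. Glud1, glutamate dehydrogenase, differed by 0.30 (SE 0.12), and by 0.15 with the background block. Of the 5 further shuttle genes 3 were positive, and the enzymes of the glycerol-phosphate shuttle differed in opposite directions, with -0.31 (SE 0.13) for the cytosolic Gpd1 and 0.25 (SE 0.11) for the mitochondrial Gpd2. All 3 measured lactate genes were positive, but Ldha was near 0, at 0.016 (SE 0.11), and -0.071 with the background block. Ldhd, the dehydrogenase of D-lactate, differed by 0.27 (SE 0.11) and Ldhb by 0.29 (SE 0.18). The lactate carriers Slc16a1, Slc16a3 and Slc16a7 were listed but have no value here.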

How the data were processed

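Total RNA of 12 whole-heart samples, 6 exercised and 6 sedentary by their labels, was hybridised to Illumina beadchips with 45281 probes. The authors deposited bead intensity that was not normalised, per the file headers, with a detection p-value for each probe and array. A second deposited table holds processed values close to a log2 scale (array medians 6.98), used here as an alternative. For it the submitters' processing notes list lumi with no version number, with the transformation not given in the sources used here.

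Intensities were corrected with neqc (offset 16) and quantile normalised. A probe was kept (17098 in all) if its detection p was below 0.01 on 6 or more of the 12 arrays. Genes were named by the platform annotation, and the brightest of a gene's probes was used (9843 genes). Exercised minus sedentary was fitted on all of them with limma 3.58.1 in R 4.3.3 (intensity trend, Benjamini-Hochberg adjustment, threshold 0.05). High background means a raw 5th percentile above 75. The fit was tested on simulated data.

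The genes, lists, pairs and settings were chosen with earlier results of these data known. All 35 genes are named. Lowest, median and highest values are given for the 12 of smallest p and for paired forms. Of other pathway genes at most 2 per list are named by smallest p. Exceptions are Ldha, genes flagged for an array standing apart and genes named only as not measured. Alternatives covered background correction, normalisation, filters, probe rule, variance model, array weights, a replicate block, background range, liver transcripts and leaving out each array. Replicate numbers were not used to pair the samples in the main fit, since the labels state no pairing. Same-numbered arrays correlated between -0.29 and 0.56, which cannot decide whether the numbers mark pairs.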

Additional observations from a re-analysis of the deposited data

Results flagged for a closer look

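Of 124 groups of 6 values examined, over the 29 genes and the 33 other pathway genes, 11 held an array standing further from its neighbour than Dixon's test allows at the 95% level, while chance gives about 6.2. Such an array was exercised replicate 3 in 4 cases. Fh1, fumarase, was at 13.95 there, against 13.47 in the next exercised array. Pdp2 was at 11.54 against 11.23, Acly, ATP-citrate lyase, at 11.72 against 10.96, and Gpd2 at 8.92 against 8.58. Exercised replicate 3 also had the highest mean over the 29 genes, 11.48.

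Mdh2 had an array apart in each group, with exercised replicate 6 at 12.43, against 13.03 in the next lowest, and sedentary replicate 1 at 13.67, against 13.25 in the next highest. Lias, lipoic acid synthase, was at 11.69 in sedentary replicate 1, against 11.38. Idh1 was at 10.63 in sedentary replicate 2, against 9.65 in the next sedentary array, and Pccb, a subunit of propionyl-CoA carboxylase, at 10.49 there, against 9.92; this is the sedentary array of high background. Pdp2 was at 10.45 in sedentary replicate 6, against 10.83, and Gpd1 at 7.05 in sedentary replicate 5, against 6.82.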

How the results depend on the processing

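No gene of the set passed the adjusted threshold under any of 30 alternatives, and of 870 single-gene values 17 changed sign where the reported value exceeded its standard error; the causes were not tested. The smallest adjusted p of the set was 0.0782 (Slc25a11, array weights, limma). The count of 18 changed genes among all named genes became 9 with cyclic loess, 0 with median scaling (432 at an unadjusted p under 0.05), 1 without a filter, 533 with array weights, 36 with the background range as a block, 10 within low-background arrays, 0 within high-background arrays (105 at an unadjusted p under 0.05, limma), 1 with a covariate for the liver list, 1 without the 3 liver-rich arrays and 3 with the background block and liver covariate. With the replicate block it was 3; the numbers mark no known pairing, and only exercised replicates 2 and 5 correlated best with their own number. Leaving out single arrays gave 17 without sedentary replicate 1, 236 without sedentary replicate 2 and 1 to 3 without any of the other 10. The genes of the set at an unadjusted p under 0.05, 2 with all arrays, were 10 (34.5%) without sedentary replicate 2 and 6 (20.7%) without sedentary replicate 1. Without any other single array they were 0 to 4, with 0 without sedentary replicate 3, 4 or 5. The shares over all named genes were 25.7%, 16.4% and 11.1% to 19.8% in that order. They were 7 (24.1%) with array weights and without the 3 liver-rich arrays, against 23.7% and 15% of all named genes. With the liver covariate they were 5 (17.2%) with or without the background block, against 10.7% and 11.6% of all named genes. The other pathway genes passing were 0, but 1 with array weights, and 0 to 1 on leaving out an array.

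The median of the set was 0.42 with median scaling and 0.092 to 0.187 on leaving out an array. With median scaling Mdh1 was 0.13 and Mdh2 0.059. With the mean of passing probes Idh3a was -0.069, Fh1 -0.063, Pdhb -0.015, Got2 -0.093 and Mdh1 minus Mdh2 -0.16. Within low-background arrays Idh1 minus Idh2 was -0.094 and Mdh1 minus Mdh2 -0.12. Within high-background arrays, with 1 sedentary array assumed to vary like the others, Idh1 was -0.10, Sucla2 0.048, Pdhb -0.022, Pdp1 -0.10, Got2 -0.11, Idh1 minus Idh2 -0.31 and Slc25a13 minus Slc25a12 0.080. With the liver covariate Mdh1 was 0.0081, Mdh2 0.051 and Mdh1 minus Mdh2 -0.028. With background block and liver covariate Idh1 was -0.11, Sucla2 0.045, Mdh1 0.036 and Mdh2 0.15. Leaving out single arrays moved Mdh1 minus Mdh2 between -0.056 and 0.067 and Suclg2 minus Sucla2 between 0.61 and 1.07. Dim probes and 6 arrays a group limit what differences could be seen.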
